A study of Ovis aries with 9 samples.

Results

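The genes described are 10 contractile genes of smooth muscle, ACTA2, ACTG2, MYH11, MYLK, CNN1, CALD1, TAGLN, LMOD1, DES and SYNPO2. They were chosen by name as the contractile genes of the theca externa, the stroma and the vessel wall. The rule holds no measured value, but earlier results of these data were known when it was made. All 10 have a row among the 27174 rows of the count table, and all 10 were among the 16871 rows that passed the expression filter. RNA of whole ovaries from 9 adult ewes was sequenced, 1 library per ewe. Libraries D4, D5 and D6 came from Dorset ewes labelled wild type. Libraries W1, W2 and W4 came from Small Tail Han ewes homozygous for the FecB mutation of BMPR1B (Han BB), and libraries W6, W7 and W8 from ewes of that breed without it (Han ++). All ewes were 2.5 to 3 years old and had their estrus synchronized with a fluorogesterone acetate sponge and pregnant mare serum gonadotropin. The ovaries were removed 24 to 36 h after the spontaneous estrus that followed. The Dorset ewes served as the low-fecundity control, so breed and fecundity cannot be told apart in the comparisons with Dorset. In Han BB against Dorset the FecB genotype differs as well and cannot be told apart from them, and both Han groups together mix the genotypes. Han BB against Han ++ compares genotypes within 1 breed.

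Smooth muscle shortens when myosin filaments pull on actin filaments. Calcium bound to calmodulin activates myosin light chain kinase, which phosphorylates the regulatory light chain of myosin, and proteins on the actin filament, such as calponin and caldesmon, restrain or steady the interaction. Desmin and the dense bodies carry the force across the cell. In the ovary these proteins are found in arterial walls, in the theca externa around follicles and in scattered stromal cells, and contraction of the follicle wall accompanies ovulation. Whole ovaries hold all of these cells together, so fewer smooth muscle cells and less RNA per cell cannot be told apart in any value given here.

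The total count of a library was 11716565 to 20748930 among Dorset ewes, 14545296 to 20438713 among Han BB ewes and 10803913 to 20992535 among Han ++ ewes. Values are counts of a gene over the library total (CPM, scaled by TMM), with the SD over the 3 ewes of a group. W4 and D6 stood apart from the other 7 libraries. Across genes, their log2 CPM correlated with each other at r = 0.972 and with the other 7 at 0.842 to 0.945, while those 7 correlated with one another at 0.896 to 0.967. In D4, 14.9% of all reads fell in 1 noncoding locus, LOC101101865, which took 7.69% of W8 and less of the other libraries. The 10 members together took from 0.649% of the reads in D4 to 1.55% in D5. They reached 14528 CPM in D5 and 14447 CPM in D6 but 7399 CPM in D4, so the lowest and the highest sum were both in Dorset ewes.

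The smooth muscle actins differed between the groups by less than the spread between ewes. ACTA2 encodes the vascular isoform of smooth muscle actin. It measured 1813, 2007 and 1846 CPM in D4, D5 and D6, then 1671, 2948 and 1336 CPM in W1, W2 and W4, and 1805, 2352 and 2062 CPM in W6, W7 and W8. Both the highest and the lowest library were Han BB, and the Dorset libraries lay inside that range. The coefficient of variation was 5.49% in Dorset, 13.2% in Han ++ and 42.8% in Han BB. The fitted log2 fold change of ACTA2 was 0.07 (SE 0.34) for Han BB against Dorset and 0.13 (SE 0.34) for Han ++ against Dorset.

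ACTG2 encodes the enteric isoform, typical of visceral smooth muscle. It lies on chromosome 3 of Oar_v3.1, from 95651712 to 95675759 on the plus strand. Its level was 461, 632 and 734 CPM for Dorset (D4, D5, D6), 269.9, 795 and 389.6 CPM for Han BB (W1, W2, W4) and 450.6, 829 and 549 CPM for Han ++ (W6, W7, W8). The groups overlapped, with W1 at the bottom and W7 at the top. The log2 fold change was -0.33 (SE 0.42) for Han BB against Dorset and 0.00 (SE 0.42) for Han ++ against Dorset, where its sign changed with the settings. The coding sequences of the actins are similar, so some reads may have been assigned to the wrong actin or dropped, and the 2 actin rows carry that uncertainty.

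**Figure D1:**
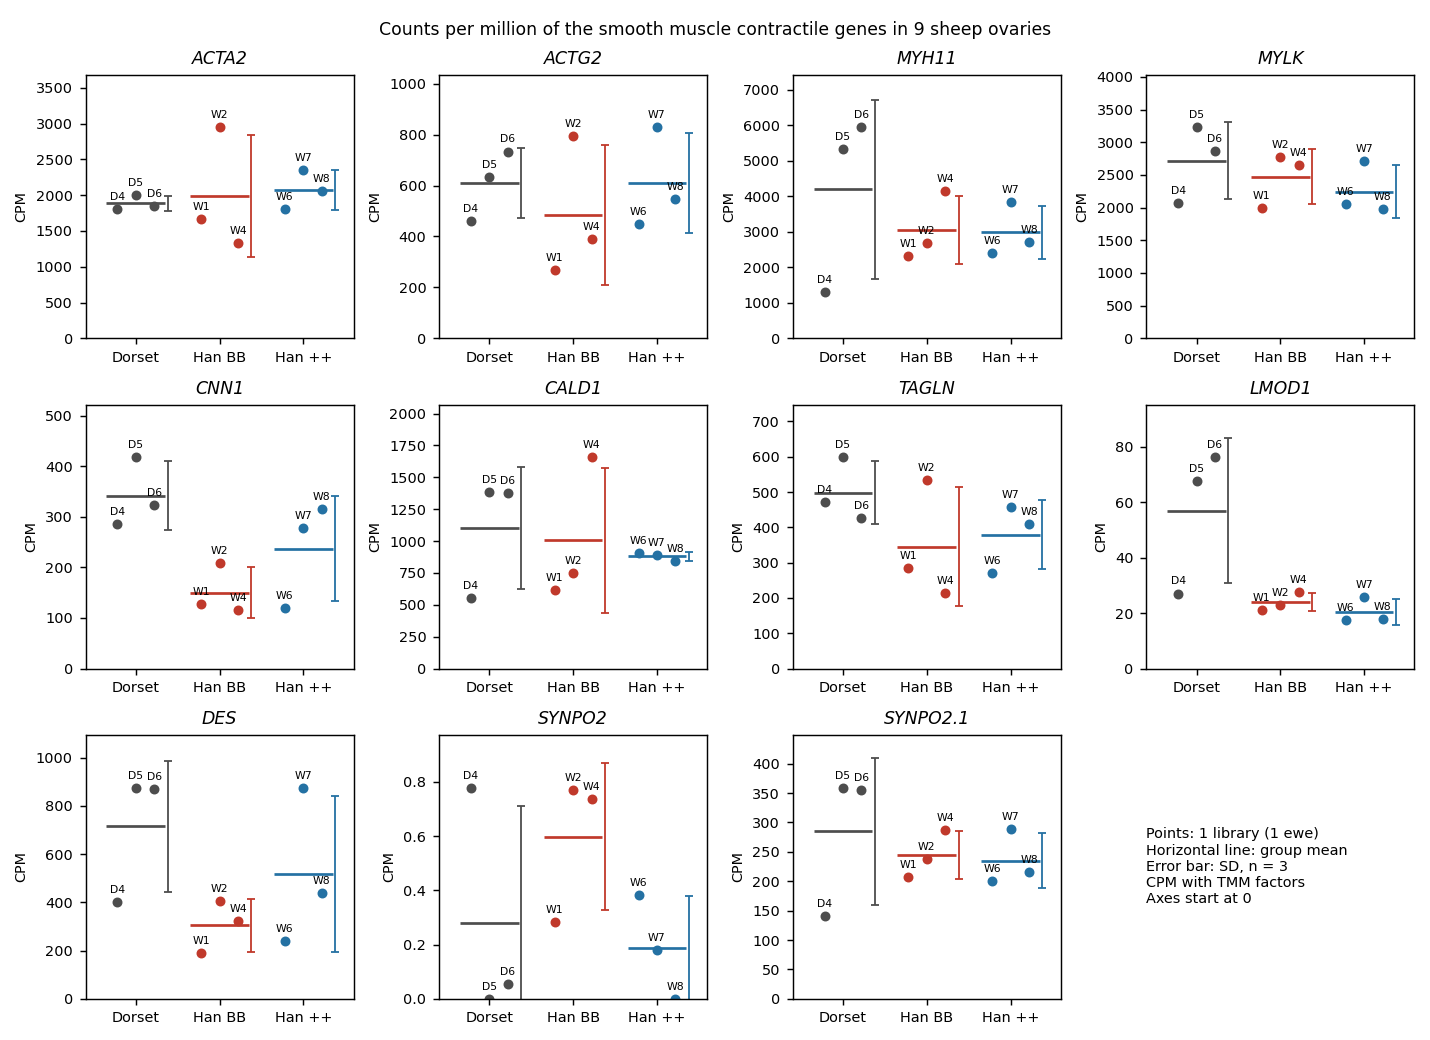
Each panel plots the CPM (vertical axis, from 0) of 1 row in the 9 libraries by group, where a point is 1 ewe, the horizontal line the group mean and the bar the SD (n = 3). Most rows, LMOD1 and CNN1 among them, have their highest value in a Dorset ewe, MYH11 and CALD1 range widely within Dorset, and the row named SYNPO2 stays below 1 CPM.

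MYH11, the myosin heavy chain of smooth muscle, varied most between Dorset ewes. It was at 1312 CPM in D4, 5320 CPM in D5 and 5940 CPM in D6, which are the lowest value and the highest values of all 9 libraries. Han BB ewes measured 2327, 2689 and 4144 CPM, and Han ++ ewes 2414, 3837 and 2704 CPM. The 6 Han libraries therefore fell between D4 and the other Dorset ewes, and the 4.53-fold range within Dorset exceeded every difference between group means. For both Han groups against Dorset the fitted log2 fold change was -0.47 (SE 0.43), and it was -0.90 without D4 and -0.14 without D6.

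MYLK, myosin light chain kinase, varied least among the members over all libraries, with a coefficient of variation of 18.7%. Dorset ewes had 2074, 3229 and 2859 CPM, Han BB ewes 1997, 2781 and 2646 CPM and Han ++ ewes 2053, 2711 and 1974 CPM. Each group held a library close to the lowest value and a higher one, so the groups overlapped throughout. Its fitted difference on the log2 scale was -0.14 (SE 0.31) for Han BB and -0.28 (SE 0.31) for Han ++ against Dorset.

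Among the thin filament proteins, CNN1, LMOD1 and TAGLN had their highest value in a Dorset ewe, as MYH11, MYLK and DES did. CNN1, calponin 1, inhibits the myosin ATPase on actin and is a marker of differentiated smooth muscle. The gene lies on chromosome 5 of Oar_v3.1, from 13552809 to 13560606 on the plus strand. It measured 285.5, 417 and 322 CPM in D4, D5 and D6, against 128, 208 and 115 CPM in W1, W2 and W4 and 119, 278 and 314.5 CPM in W6, W7 and W8. All 3 Han BB libraries were below all 3 Dorset libraries, while 1 Han ++ library, W8, was above D4. Dorset ewes had a mean of 342 ± 67.9 CPM, Han BB ewes of 150.2 ± 50.2 CPM and Han ++ ewes of 237 ± 104 CPM. For Han BB against Dorset the log2 fold change was -1.19 (SE 0.40), with an unadjusted p of 0.0128 and an adjusted p of 0.970 in edgeR's quasi-likelihood test. It was -0.53 (SE 0.39) for Han ++ against Dorset.

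LMOD1, leiomodin 1, nucleates actin filaments in smooth muscle. It was at 27.1, 67.5 and 76.1 CPM in D4, D5 and D6, at 21.2, 23.0 and 27.8 CPM in W1, W2 and W4 of Han BB, and at 17.5, 25.8 and 17.9 CPM in W6, W7 and W8 of Han ++. D5 and D6 stood well above the other 7 libraries, and D4 lay just above all Han ++ values and just below the highest Han BB value. The counts behind these values were 194 to 1498 reads. The log2 fold change was -1.25 (SE 0.37) for Han BB, -1.48 (SE 0.38) for Han ++ and -1.36 (SE 0.31) for both Han groups against Dorset. For both Han groups the edgeR unadjusted p was 0.00103 and the adjusted p 0.404. DESeq2 gave -1.37 (SE 0.36) with an adjusted p of 0.0372, below the threshold of 0.05, and limma voom an adjusted p of 0.137. Over all settings that adjusted p ranged from 0.0372 to 0.998, and 0.0372 was the only one under the threshold. The fold change was -1.70 without D4 and -1.10 without D6 (edgeR).

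TAGLN, transgelin, is an actin-bundling protein of smooth muscle. Dorset ewes had 471, 598 and 425 CPM, Han BB ewes 285.5, 535 and 214 CPM and Han ++ ewes 269.6, 459 and 409.9 CPM. W2 and W7 reached the Dorset range, and the other Han libraries were below it. TAGLN had log2 fold changes of -0.53 (SE 0.38) for Han BB and -0.39 (SE 0.38) for Han ++ against Dorset.

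CALD1, caldesmon, binds actin and restrains myosin, and non-muscle cells make it too. The values were 553, 1383 and 1375 CPM for Dorset, 612, 747 and 1655 CPM for Han BB and 907, 887 and 843 CPM for Han ++. D5, D6 and W4 were the high libraries and D4 the lowest, so Dorset and Han BB each held high and low ewes. The Han ++ ewes differed by 1.08-fold at most. For both Han groups against Dorset its log2 fold change was -0.23 (SE 0.39).

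DES, desmin, is the intermediate filament protein of muscle cells, on chromosome 2 of Oar_v3.1 from 220325595 to 220332676 on the plus strand. The values were 402, 875 and 871 CPM for Dorset, 188, 404 and 322 CPM for Han BB and 239, 873 and 437.5 CPM for Han ++. D5, D6 and W7 were high and nearly equal, and the highest Han BB library, W2, was level with D4. The log2 fold change was -1.23 (SE 0.51) for Han BB against Dorset, with an unadjusted p of 0.0332 and an adjusted p of 0.975 in edgeR, and -0.47 (SE 0.50) for Han ++ against Dorset. The latter was -1.11 without W7 and -0.15 without W6.

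SYNPO2, synaptopodin 2 or myopodin, is an actin-binding protein of the dense bodies. The row with this symbol held 0 to 11 reads per library, with 0 reads in W8 and D5, and no fold change is given for it. A second row, SYNPO2.1, held 1445 to 7968 reads. The values were 141, 359 and 355.5 CPM for Dorset, 207, 238 and 288 CPM for Han BB and 201, 289 and 216 CPM for Han ++. D4 was the lowest library, D5 and D6 the highest, and the log2 fold change for both Han groups against Dorset was -0.25 (SE 0.32). The deposited table does not say how the second row was defined, so its link to the gene rests on the name.

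**Figure D2:**
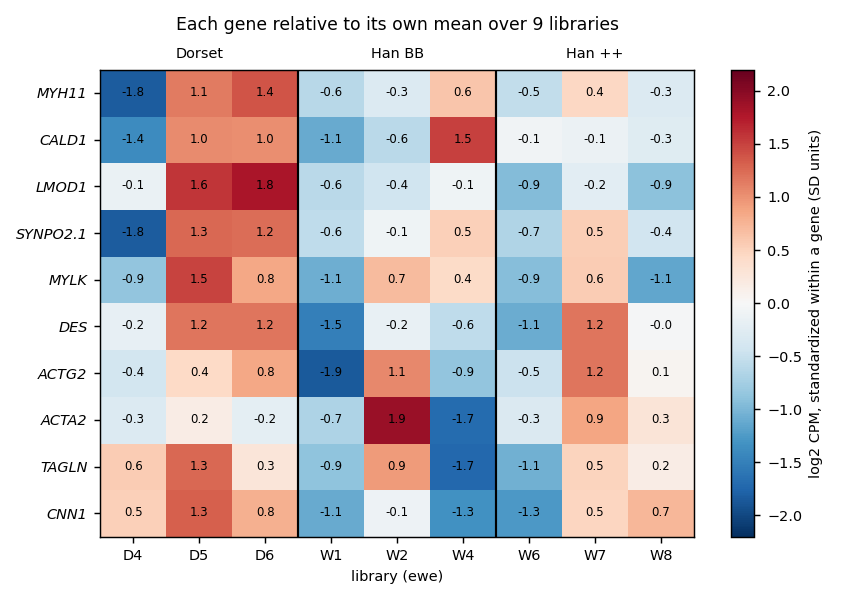
Colours and printed numbers give the log2 CPM of each gene (rows) in each library (columns), as SDs from the gene's own mean over the 9 libraries. D5 and D6 are at or above the mean for all genes except ACTA2 in D6, W1 is below it for every gene shown, and W4 is high for CALD1 and MYH11 and low for ACTA2, TAGLN and CNN1.

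The members did not vary as 1 block between ewes. In W4, CALD1 was at its highest of the 9 libraries and MYH11 and LMOD1 ranked 3 of 9, while ACTA2, TAGLN and CNN1 were at their lowest. In D4, MYH11, CALD1 and SYNPO2.1 were at their lowest while TAGLN ranked 3 and CNN1 ranked 4 from the top. In W2 the order was another one again, with ACTA2 at its highest and ACTG2 and TAGLN ranked 2. The members' mean standardized log2 CPM correlated over the 9 libraries with DES at r = 0.926, MYLK at 0.892 and ACTG2 at 0.869, with ACTA2 and CALD1 at 0.494 and 0.492, and with SYNPO2 at -0.402. The mean weights all 10 genes equally, SYNPO2 with its 0 to 11 reads included. These correlations describe 9 libraries that share the scaling, and each gene is part of the mean.

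No member passed the thresholds (an adjusted p below 0.05 with a change of more than 1.5-fold either way) in edgeR. For Han BB against Dorset the share of all tested genes called was 0%, with 842 genes at an unadjusted p under 0.05, 38 genes called by DESeq2 and 0 by limma. For Han ++ against Dorset it was 0.00593%, which is 1 gene, ROPN1L, a gene of motile cilia, with 889 genes at an unadjusted p under 0.05, 65 called by DESeq2 and 0 by limma. For Han BB against Han ++ it was 0%, with 332 genes at that unadjusted p, 2 called by DESeq2 and 2 by limma. For both Han groups against Dorset it was 0%, with 1033 genes, 88 called by DESeq2 and 0 by limma. For any difference among the 3 groups it was 0%, with 665 genes, 59 called by DESeq2 and 0 by limma. Among the members, DESeq2 called LMOD1 for both Han groups against Dorset, 1 of its 88 genes, and limma called none. DESeq2 started from the 24744 rows with a read. The study's lists of differentially expressed genes, made with DESeq at the same thresholds, held ACTG2, CNN1 and DES. Those lists were far longer than the calls made here, and the difference was not examined. A p above the threshold does not show that levels were equal, since the biological coefficient of variation was 0.472 with 3 ewes per group.

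At an unadjusted p under 0.05, LMOD1, CNN1 and DES were lower in Han BB than in Dorset, 3 of 10 members against 2.89% of all tested genes. LMOD1 alone was lower in Han ++ than in Dorset, 1 of 10 against 2.66%. For both Han groups against Dorset these were LMOD1 and CNN1 (unadjusted p = 0.0256, adjusted p = 0.721, edgeR), 2 of 10 against 3.5%. Between Han BB and Han ++ there were 0 of 10 against 1.09% lower in Han BB, and no member was higher at that p in any of these comparisons. Libraries did not overlap, with Dorset above, for CNN1 against Han BB (1 of 10 members, 4.52% of all tested genes) and for LMOD1 against Han ++ (1 of 10, 5.59%). There were 0 of 10 such members in Han BB against Han ++ (4.59%) and 0 of 10 for both Han groups against Dorset (1.93%).

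Most members had lower fitted values in Han than in Dorset ewes, counting SYNPO2 with its few reads. Against Dorset, 8 of 10 members had a negative log2 fold change in Han BB, 8 of 10 in Han ++ and 8 of 10 in both Han groups together, while the shares over all tested genes were 50.6%, 55.9% and 54.5%. The members' median log2 fold change was -0.39, -0.36 and -0.35 in these comparisons and that of all genes -0.01, -0.06 and -0.04. These comparisons share the 3 Dorset libraries, in which D5 and D6 were high for most members, and for both Han groups the median of the 9 members other than SYNPO2 moved from -0.46 to -0.17 without D6 and to -0.28 without D5. With 1 library left out at a time, this median was -0.88 (without W2) to -0.17 (without D6) for Han BB and -0.65 (without D4) to -0.23 (without W6) for Han ++ against Dorset. Between Han BB and Han ++, 5 of 10 members were lower in Han BB, against 46.6% of all genes, with a median of -0.01 against 0.04.

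**Figure D3:**
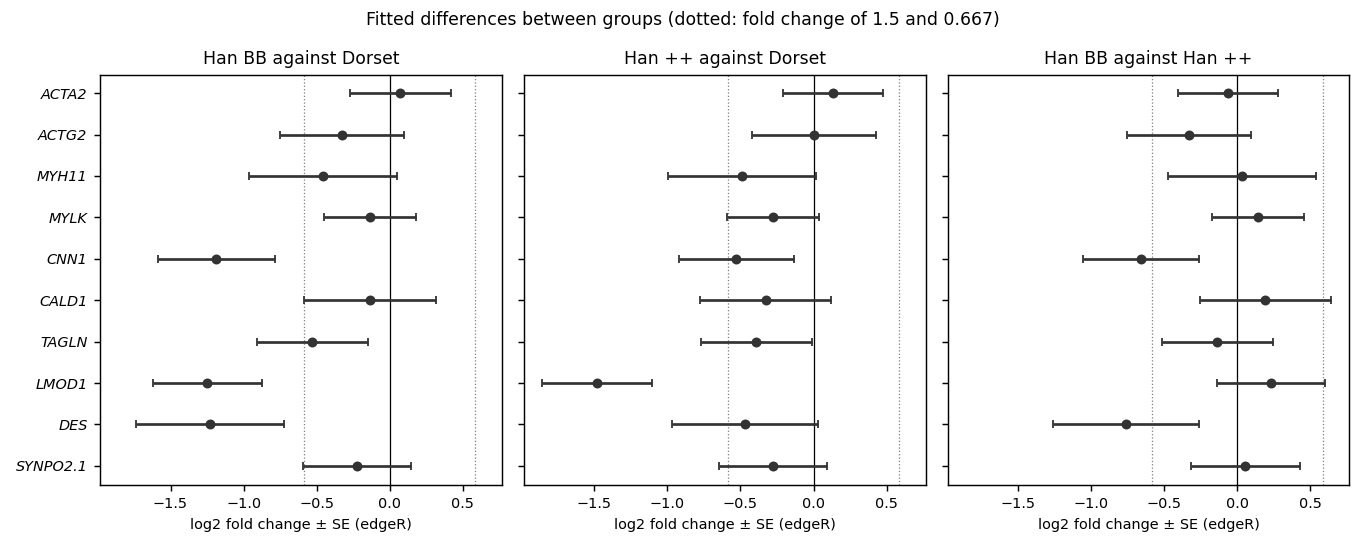
Points are the log2 fold changes of 9 members and of the row SYNPO2.1 (edgeR, horizontal axis) with their SE as bars in 3 comparisons, and dotted lines mark 1.5-fold either way. CNN1, LMOD1 and DES lie near -1.2 for Han BB against Dorset, LMOD1 at -1.48 for Han ++ against Dorset, and the remaining points within 0.8 of 0.

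Between the Han genotypes, the members with the largest differences were DES, with a log2 fold change of -0.76 (SE 0.50) for Han BB against Han ++, and CNN1, with -0.66 (SE 0.40). DES was at -0.13 without W7, where CNN1 was at -0.51 and LMOD1 at 0.46. Without W6, DES was at -1.09, CNN1 at -0.965 and LMOD1 at 0.15. With all 9 libraries the unadjusted p was 0.158 for DES and 0.125 for CNN1 in edgeR, and the groups overlapped for both. The other members apart from SYNPO2 lay between -0.33 and 0.23, all within 1 SE of 0.

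Reads of 1 member relative to ACTA2 in the same library do not depend on the library total. The tested ratios, of CNN1, DES and ACTG2, were chosen with earlier results of these data known, so their p-values are not independent of the data. CNN1 gave 15.8, 20.8 and 17.5 reads per 100 ACTA2 reads in D4, D5 and D6. It gave 7.65, 7.05 and 8.61 in W1, W2 and W4, and 6.58, 11.8 and 15.3 in W6, W7 and W8. Every Han ewe was below every Dorset ewe, although W8 and D4 nearly met. The mean log2 ratio of CNN1 to ACTA2 differed by -0.98 between the 6 Han ewes and the 3 Dorset ewes (exact two-sided permutation test, p = 0.0238, the smallest this design allows; adjusted over 12 tests, p = 0.286). For Han BB and for Han ++ alone the differences were -1.21 and -0.76, each with the exact permutation p of 0.1, the smallest for 3 ewes against 3.

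DES gave 22.2, 43.6 and 47.2 reads per 100 ACTA2 reads in Dorset and 11.3 to 37.1 in the Han ewes, an overlap through W4 and W7. The log2 ratio differed by -0.96 between Han and Dorset (exact permutation p = 0.0714, adjusted p = 0.3). ACTG2 gave 25.4 to 39.7 reads per 100 ACTA2 reads in Dorset and 16.2 to 35.2 in Han, a log2 difference of -0.29 (exact permutation p = 0.262, adjusted p = 0.449). The relation of the enteric to the vascular actin was thus not separated by group.

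Other ratios to ACTA2 were added after the data had been seen and are given without a test. TAGLN gave 23.0 to 29.8 reads per 100 ACTA2 reads in Dorset and 14.9 to 19.9 in the Han ewes, which did not overlap. With CNN1 this made 2 of the 9 members other than ACTA2, while 1.23% of all tested genes had Han ratios to ACTA2 entirely below the Dorset ratios. LMOD1 (1.49 to 4.12 in Dorset and 0.779 to 2.08 in Han), MYLK (114 to 161 and 94.4 to 198) and SYNPO2.1 (7.76 to 19.3 and 8.09 to 21.5) overlapped. MYH11 ranged from 72.4 in D4 to 322 in D6, with 310.0 in W4 and 265 in D5, and 91.2 to 163 in the other Han ewes. CALD1 reached 124 in W4, against 25.4 in W2 of the same group. W4 and D6 had the highest MYH11 to ACTA2 ratios and also stood apart over all genes, and the part of that split in the ratios was not tested.

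**Figure D4:**
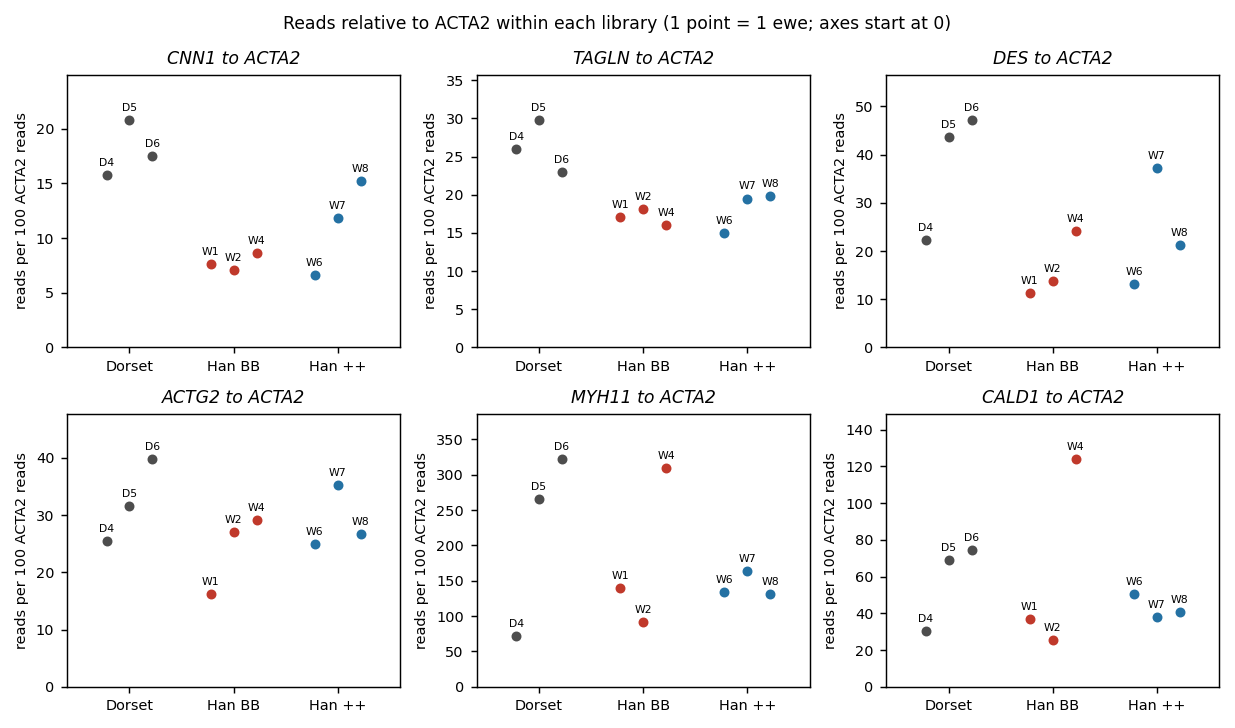
Each panel plots reads of 1 member per 100 ACTA2 reads (vertical axis, from 0) in the 9 libraries by group, 1 point per ewe. For CNN1 and TAGLN all Han points are below all Dorset points, as for 1.23% of all tested genes, while MYH11 and CALD1 spread from 72.4 to 322 and from 25.4 to 124 without separating the groups.

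The proteins that work with the members were examined in 5 lists, of which no gene was called in edgeR in any comparison. Of 19 tested partners in the thin filament and myosin, 12 were lower in Han than in Dorset, with a median log2 fold change of -0.27. SMTN, smoothelin, averaged 126 ± 33.9 CPM for Dorset, 71.4 ± 9.96 CPM for Han BB and 102 ± 30.4 CPM for Han ++ (log2 fold change for both Han groups -0.56, SE 0.27, edgeR adjusted p = 0.828). LMOD3, a leiomodin of striated muscle, was at 3.33, 0.575 and 1.59 CPM in these groups. TMOD1, which caps the pointed end of actin filaments, went the other way, at 49.9 ± 7.94, 70.2 ± 20.9 and 97.7 ± 13.3 CPM (log2 fold change 0.73, SE 0.25, edgeR adjusted p = 0.630).

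Of 37 tested kinases, phosphatases and ion channels of contraction, 22 were lower in Han, with a median of -0.07. RYR3, a calcium release channel, was at 19.2 ± 3.101 CPM for Dorset, 8.08 ± 2.94 CPM for Han BB and 9.86 ± 2.92 CPM for Han ++, a log2 fold change of -1.11 (SE 0.30; edgeR adjusted p = 0.509). ARHGEF25, a guanine nucleotide exchange factor, was at 93.1 ± 38.3, 60.7 ± 19.8 and 49.6 ± 15.3 CPM in these groups. Of this list, 3 genes were lower and 0 higher at an unadjusted p under 0.05 for both Han groups, against 3.5% lower over all genes.

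Of 40 tested partners in adhesion, cytoskeleton and Z-bodies, 25 were lower in Han, with a median of -0.06, near that of all genes. HSPB8, a small heat shock protein, was at 26.6 ± 7.09, 16.5 ± 4.601 and 18.6 ± 3.02 CPM in Dorset, Han BB and Han ++. SYNM, the intermediate filament protein synemin, was at 104 ± 77.4, 45.0 ± 29.6 and 44.3 ± 21.7 CPM, a spread within Dorset as wide as the difference. LPP, a focal adhesion protein, was at 144 ± 38.01, 184 ± 46.7 and 216 ± 30.8 CPM.

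Of 20 tested receptors for contractile agonists, 14 were lower in Han, against 54.5% of all tested genes, with a median of -0.45. At an unadjusted p under 0.05 in edgeR, 0 of them were lower and 0 higher for both Han groups. AGTR1, the angiotensin II receptor, was highest in Han BB, at 48.3 ± 17.3 CPM, against 25.6 ± 10.9 CPM in Dorset and 23.1 ± 6.59 CPM in Han ++ (Han BB against Han ++, log2 fold change 1.07, SE 0.38, edgeR adjusted p = 1.00). ADRA1B and ADRA2A, which are adrenergic receptors, stayed at or below 4.57 and 1.17 CPM in every library (3 to 85 and 2 to 16 reads). Several other receptors of the list were as low, and the median includes them.

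Of 28 tested regulators, 16 were lower in Han, with a median of -0.12. SRF, the transcription factor that binds the promoters of many smooth muscle genes, averaged 39.3 ± 11.2 CPM for Dorset, 22.03 ± 7.54 CPM for Han BB and 27.7 ± 5.47 CPM for Han ++ (log2 fold change for both Han groups -0.67, SE 0.29, edgeR unadjusted p = 0.0400, adjusted p = 0.777). TGFB1, a growth factor that promotes smooth muscle differentiation, was higher in Han, at 9.29 ± 5.42, 16.5 ± 7.79 and 31.4 ± 20.7 CPM (log2 fold change 1.30, SE 0.51, edgeR adjusted p = 0.725). TCF21, a transcription factor of stromal fibroblasts, was at 122 ± 18.7, 81.4 ± 21.02 and 86.1 ± 4.73 CPM.

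**Figure D5:**
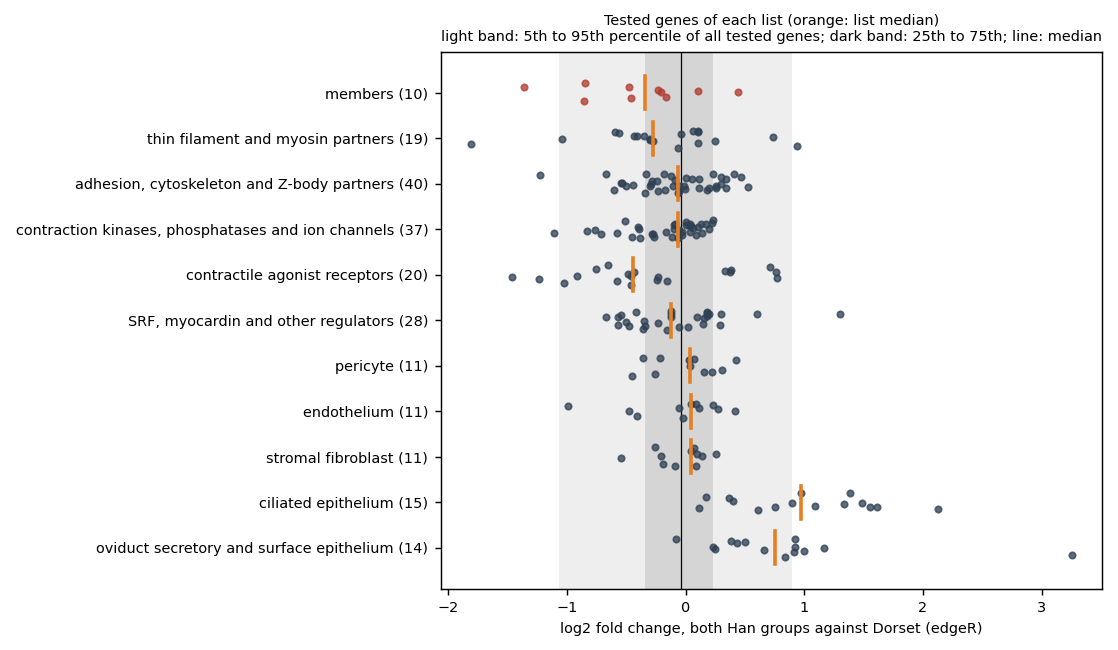
Points are the log2 fold changes for both Han groups against Dorset (edgeR, horizontal axis) of the tested genes of each list (number in brackets), orange ticks the list medians, and bands the 5th to 95th and 25th to 75th percentiles of all tested genes. The median is -0.35 for the members, 0.04 to 0.05 for pericyte, endothelium and fibroblast genes, and 0.97 and 0.75 for the epithelial lists.

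Markers of other cells were read from the same libraries. Among the striated muscle genes, MYOD1 and MYOG, which direct the skeletal muscle fate, had 0 to 4 and 0 to 6 reads in a library, and CKM, the muscle creatine kinase, 0 to 42. The giant sarcomere proteins TTN and NEB were measured at 10.6 to 97.7 CPM (224 to 1061 reads) and 42.3 to 150.2 CPM (566 to 2245 reads). Of 20 genes in the list, 10 were tested and 7 were lower in Han, and the list summed to 92.2 to 157 CPM for Dorset, 64.7 to 185 CPM for Han BB and 109 to 221.5 CPM for Han ++. Pericytes, which also make ACTA2, showed a sum of 579 to 790 CPM among Dorset ewes, 453.5 to 916 CPM among Han BB ewes and 608 to 864 CPM among Han ++ ewes, and 4 of 11 tested genes were lower in Han. Endothelium summed to 816 to 925, 757 to 948 and 702 to 838 CPM, with 5 of 11 lower and a median log2 fold change of 0.05. EGFL7 was at -0.99 (SE 0.35, edgeR adjusted p = 0.637), KDR at -0.41 (SE 0.26) and PECAM1 at -0.05 (SE 0.26) for both Han groups against Dorset. Stromal fibroblast genes summed to 12436 to 24039, 13944 to 18960 and 18512 to 24234 CPM, with 5 of 11 lower.

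The epithelial lists and the lists of follicular, luteal and immune cells are given by their counts and sums. All 15 tested genes of ciliated epithelium had a positive log2 fold change for both Han groups against Dorset, while 54.5% of all tested genes had a negative one. The sums of the ciliated genes overlapped, at 153 to 406.5 CPM in Dorset and 212 to 871 CPM in Han, with the highest Dorset sum in D6 and the highest Han sum in W4, the libraries that stood apart over all genes. Of oviduct secretory and surface epithelium, 13 of 14 tested genes had a positive log2 fold change, with sums of 541 to 1167 CPM in Dorset, the highest again in D6, and 1209 to 2291 CPM in Han. D4, the Dorset ewe with the lowest sum of the members, had the highest sums of luteal genes (1944 CPM), theca genes (937.5 CPM) and immune genes (1028 CPM), against 407 to 692, 387 to 437 and 353 to 384 CPM in D5 and D6. The Han libraries differed from this. W2 had 1880 CPM of luteal and 777 CPM of theca genes with a members' sum of 11131 CPM. W1 had 744 and 378.5 CPM with a members' sum of 7501 CPM. Of 8 tested theca genes 6 were lower in Han, of 8 granulosa genes 6, of 10 luteal genes 5 and of 11 immune genes 4. The theca and luteal lists share STAR, CYP11A1, HSD3B1 and LHCGR, so their sums and counts are not independent. GLI1 and PTCH1, which are targets of the hedgehog signal that granulosa cells send to the theca, were at 14.0 ± 12.9 and 75.1 ± 46.1 CPM in Dorset, 3.465 ± 1.245 and 41.6 ± 11.3 CPM in Han BB and 4.995 ± 2.154 and 42.3 ± 11.1 CPM in Han ++. D5 was the highest library for both genes, at 28.7 and 120.5 CPM, while D4 was the lowest library for PTCH1, at 28.3 CPM. For both Han groups against Dorset GLI1 had a log2 fold change of -1.75 (SE 0.52, edgeR adjusted p = 0.547) and PTCH1 of -0.84 (SE 0.38, edgeR adjusted p = 0.815). The part of these cells in the members' values was not tested.

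The genes outside the members whose log2 CPM followed the members' mean most closely over the 9 libraries were SMOC2, a secreted matricellular protein (Pearson r = 0.950), ELK3, an ETS transcription factor (r = 0.918), PKNOX2 (r = 0.899), SLITRK3 (r = 0.898) and FBN1, the microfibril protein fibrillin 1 (r = 0.893). They were followed by PRUNE2 (r = 0.892), KCNMB1, the beta subunit of the calcium-activated potassium channel of smooth muscle (r = 0.888), LOC101122432 (r = 0.887), TBC1D2B (r = 0.887) and VCP (r = 0.884). SMOC2 was at 64.5, 60.0 and 57.9 CPM in D5, W7 and D6 and at 28.3 and 30.4 CPM in W6 and W1, which were also the libraries at the top and the bottom for DES. The order was not firm, since 3 of these 10 genes were among the first 10 by Spearman's rank correlation, 2 without W4 and D6, 3 without D4 and 7 with SYNPO2 left out of the mean.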

How the data were processed

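Ovary RNA of 9 ewes was sequenced, 1 library each, and groups were taken from the breed and genotype labels. Per the labels and the methods, the authors aligned reads to Oar_v3.1 with TopHat and used uniquely mapped reads, and they deposited whole-number counts per gene without normalization. The counting program is not given in the sources used here, nor is its strand setting, and the labels name another Illumina kit than the methods (stranded total RNA with ribosomal RNA removal). No column of the count table was left out (0 not used).

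Counts were tested in R 4.3.3 with edgeR 4.0.16 (TMM, expression filter by group, quasi-likelihood fit of all 9 libraries, Benjamini-Hochberg adjustment over all 16871 tested rows). A gene was called at an adjusted p below 0.05 with a change of more than 1.5-fold either way, as in the study. Alternatives were DESeq2 1.42.0, its size factors in edgeR, limma 3.58.1 (voom with quality weights), no filter, 1 CPM in 3 libraries, only the groups compared, no fold change threshold, a term for W4 and D6, leaving both out, and leaving out each library. Summing rows of 1 symbol, a members' mean without SYNPO2, and ratios to ACTA2 beyond ACTG2, DES and CNN1 were added after the data were seen. Log2 CPM used a prior count of 2. Ratios used exact two-sided permutation tests (scipy 1.17.1), and figures were drawn with matplotlib 3.10.9. The scripts were tested on simulated data.

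The members, the lists and the tested ratios to ACTA2 were chosen with earlier results of these data known. Named genes are the members, the 3 genes of each other list with the smallest p for any difference among the groups, the 10 most like the members' mean, and defining markers. Not all of those 3 are named for the lists of other cells, and 1 gene of the kinases, phosphatases and channels is not reported here. Listed genes were matched by symbol or gene number (ARS-UI_Ramb_v3.0), and where rows shared a symbol the one with the highest mean was used. Positions are those in the study's supplementary lists of differentially expressed genes, so they are given only for the members found there. Replicates are separate ewes.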

Additional observations from a re-analysis of the deposited data

How the results depend on the processing

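With 3 ewes per group and a biological coefficient of variation of 0.472, the spread between ewes limited the precision, and the counts of LMOD1 (194 to 1498 reads) and of the row SYNPO2 (0 to 11 reads) were the smallest. Nothing in the labels pairs the ewes, so no blocked fit was made. The number of members called was 0 under all alternatives except DESeq2, with 1 (LMOD1) for both Han groups against Dorset. In that comparison DESeq2 called 88 genes, starting from the 24744 rows with a read. DESeq2 was not refitted without each library. The negative differences of LMOD1, CNN1 and DES against Dorset kept their sign in every alternative. Differences close to 0 changed sign, and the cause was not tested. For Han ++ against Dorset, ACTA2 was -0.00967 with a term for W4 and D6, and ACTG2 was -0.000951 with DESeq2's size factors, -0.00222 with DESeq2, -0.061 with limma voom and -0.00166 without a filter. For Han BB against Han ++, limma voom gave -0.18 for MYH11, -0.32 for CALD1 and -0.0498 for SYNPO2.1. The term for W4 and D6 gave 0.038 for ACTA2, -0.27 for MYH11, 0.015 for TAGLN, -0.24 for CALD1 and -0.10 for SYNPO2.1, and leaving both libraries out gave 0.15, -0.26, 0.11, -0.38 and -0.0876. Without W4 and D6, ACTG2 was 0.051 for both Han groups against Dorset, and its log2 ratio to ACTA2 was 0.015 for Han ++ against Dorset.

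Leaving out 1 library at a time changed the sign for Han BB against Dorset in ACTA2 (-0.32 to 0.27), MYLK (-0.30 to 0.0099) and CALD1 (-0.73 to 0.11), and for Han ++ against Dorset in ACTG2 (-0.31 to 0.16) and in the log2 ratio of ACTG2 to ACTA2 (-0.31 to 0.015). It did so for both Han groups in ACTA2 (-0.093 to 0.20) and for Han BB against Han ++ in ACTA2 (-0.45 to 0.15), MYH11 (-0.26 to 0.28), TAGLN (-0.60 to 0.11), CALD1 (-0.38 to 0.45) and SYNPO2.1 (-0.087 to 0.25). All other leave-one-out differences of single members kept their sign, SYNPO2 left out, though not their size.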
